A study of Mus musculus with 40 samples.

Results

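Messenger RNA levels were examined for 49 genes of the peroxisome, among 21500 protein-coding genes measured in mouse liver. The genes were chosen by name for their role, with earlier results of these data known, so shares of called genes are descriptive. They comprised 13 Pex genes that build the organelle, 15 genes of peroxisomal beta-oxidation, and 7 genes of oxidases, catalase and glyoxylate metabolism. The others were 3 genes of alpha-oxidation, 3 of ether lipid synthesis, 4 of coenzyme A and Nudix metabolism, and 4 encoding a protease and membrane proteins. All 20 mice were male C57BL/6J on CDAA-HFD, a diet without added choline, defined in its amino acids, with 0.1% methionine and 60% of its energy as fat, begun at 8 weeks of age and used to induce steatohepatitis with fibrosis. After 4 weeks 10 mice stayed on this diet alone (CDAA-HFD mice, numbered 31 to 40), and 10 mice received it with BLT1i at 90 mg/kg for a further 8 weeks (BLT1i mice, numbered 71 to 80). The title of the series states that BLT1 inhibition was the question, and the sample titles carry a code, L_286, whose meaning is not stated there. Livers were collected when the mice were 20 weeks old. No mice fed another diet were analysed, and each difference lies between animals that ate CDAA-HFD throughout.

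Peroxisomes are organelles of a single membrane that shorten very long, branched and dicarboxylic fatty acids, make ether lipids and bile acid intermediates, and detoxify glyoxylate. Their oxidases pass electrons straight to oxygen and release hydrogen peroxide, which catalase breaks down. In rodent liver, ligands of the nuclear receptor PPAR-alpha, including fatty acids, are known to raise a core set of peroxisomal beta-oxidation genes, while the Pex genes respond less to them and are expressed in most cells.

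Of the 49 genes, 47 passed the filter on low counts and were tested, and 17 of these rose with BLT1i while 30 did not pass (quasi-likelihood test of edgeR, p adjusted by Benjamini-Hochberg over all 13993 tested genes, threshold 0.05). The 17 make up 36.2% of the tested peroxisomal genes, against 3.65% of all tested genes that were called higher and 5.63% called in either direction. No peroxisomal gene was called lower by edgeR, by DESeq2 or by limma-voom, against 1.98% of all tested genes by edgeR, and 1 gene, Far1, was lower at an unadjusted p under 0.05. The median log2 fold change was 0.09 over the 47 genes and -0.01 over all tested genes. The log2 fold change was above 0 for 39 of the 47 genes, or 83.0%, against 46.0% of all tested genes. Most of the rises were in beta-oxidation, where 10 of 15 genes rose with a role median of 0.32, whereas 3 of 13 Pex genes rose with a median of 0.08. Outside these roles 4 of 19 tested genes rose, namely Uox, Hacl1, Phyh and Mlycd.

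**Figure D1:**
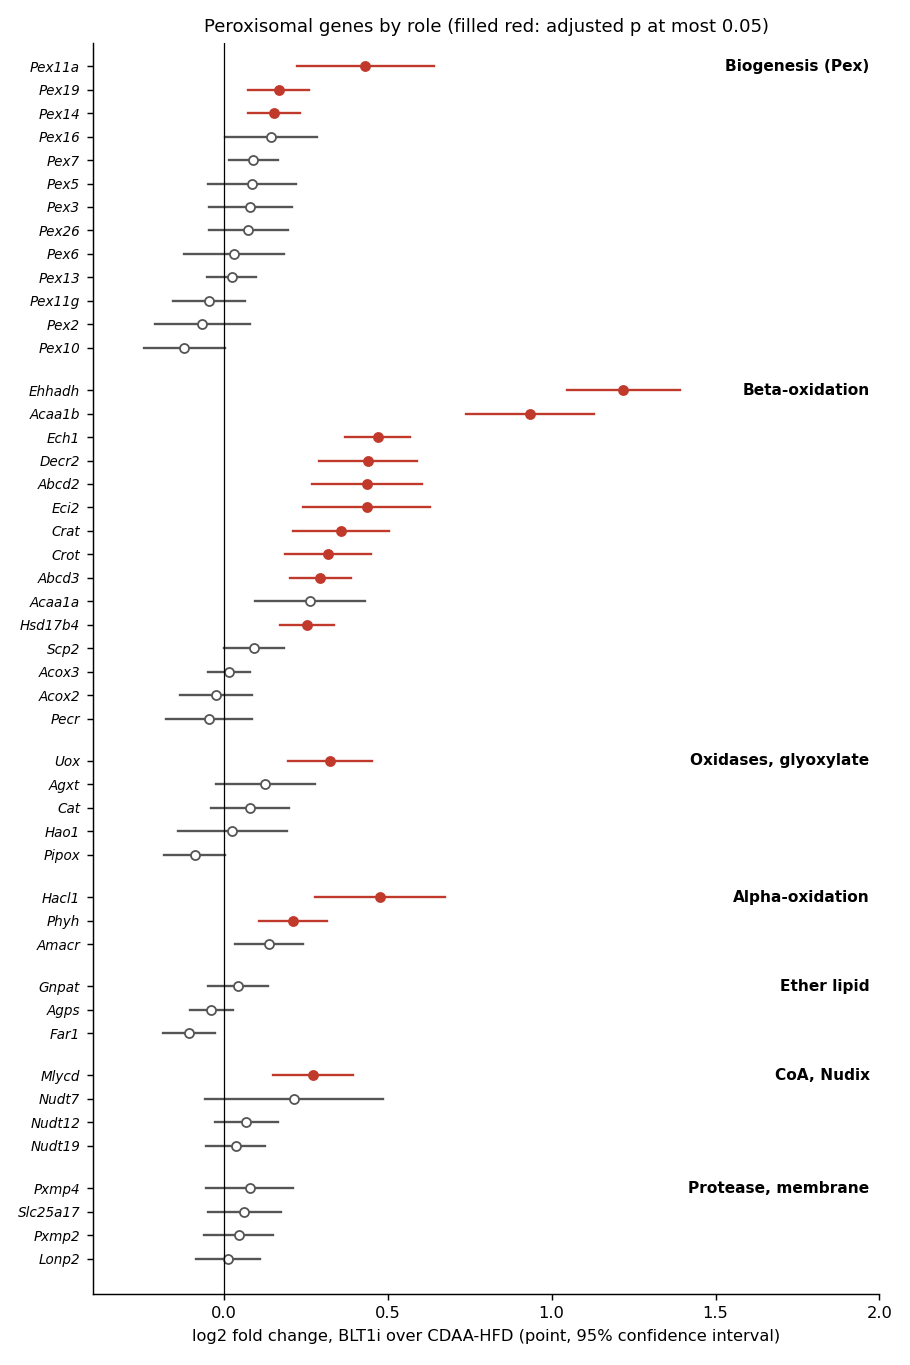
Log2 fold change of the 47 tested peroxisomal genes (x axis, BLT1i over CDAA-HFD), grouped by role; points are edgeR estimates and lines 95% confidence intervals, filled red where adjusted p was at most 0.05. Ehhadh at 1.22 and Acaa1b at 0.93 lie farthest to the right, and the genes of the ether lipid role lie around 0.

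Depth, cell composition and order could bear on the values. Total counts were 20994073 to 27456678 in the CDAA-HFD mice and 18467060 to 26078285 in the BLT1i mice. None of the 9 hepatocyte markers measured passed, and their summed level was 59672 to 71880 CPM (counts scaled to library size) in the CDAA-HFD mice and 60664 to 74546 CPM in the BLT1i mice. None of the 8 macrophage, 8 stellate cell or 6 cholangiocyte markers passed. Still, the log2 fold change was below 0 for 7 of 8 macrophage markers (median -0.12) and all 6 cholangiocyte markers (median -0.14). It was below 0 for 4 of 8 stellate cell markers (median 0.004), and above 0 for 7 of 9 hepatocyte markers (median 0.06). All 7 endothelial markers were above 0 (median 0.13), and 3 of them were called higher (summed level 622 to 756 against 694 to 828 CPM). No marker of any list was at 0 in all mice. Among leukocyte markers 1 of 8, Cd8a, was higher (summed level 10.1 to 16.5 against 9.54 to 17.7 CPM), as were 1 of 8 periportal markers (Pck1) and 2 of 8 pericentral markers (Cyp2e1 and Oat). In whole liver, fewer cells of a type and less RNA per cell cannot be told apart. Of 12 immediate early genes, which respond rapidly to stimulation of a cell, 10 were higher with BLT1i, and their summed level did not overlap between groups (676 to 1360 against 1383 to 2367 CPM). With the mean log2 level of these genes as a covariate, 4 of the 17 peroxisomal genes kept their call (Ehhadh, Acaa1b, Abcd3 and Ech1). All 17 kept a positive log2 fold change there, with a median ratio to the value without the covariate of 1.05, while the median SE went from 0.06 to 0.12. Single genes moved in both directions: Abcd2 went from 0.44 to 0.20 and Uox from 0.32 to 0.18, whereas Acaa1b went from 0.93 to 1.13. The mouse numbers run in separate blocks for the groups. If the livers were processed in that order, which is not stated, its effect cannot be told apart from treatment.

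The groups were fully separated in 4 genes, Ehhadh, Acaa1b, Ech1 and Uox, with every BLT1i mouse above every CDAA-HFD mouse. Such a separation was seen upward in 0.422% of all tested genes and downward in 0.0214%, and no peroxisomal gene was separated downward. RefSeq gives the 300 bases around their starts, 250 before and 50 after, on GRCm38.p6. They are printed because the CPM of these 4 genes did not overlap between the groups. Capitals mark a GC box (GGGCGG, or CCGCCC on the other strand) or a CCAAT box (CCAAT, or ATTGG on the other strand). Acaa1b lies at chr9:119157044-119157343 (minus strand), Ech1 at chr7:28825088-28825387 (plus strand), Ehhadh at chr16:21787785-21788084 (minus strand) and Uox at chr3:146596899-146597198 (plus strand).
Acaa1b: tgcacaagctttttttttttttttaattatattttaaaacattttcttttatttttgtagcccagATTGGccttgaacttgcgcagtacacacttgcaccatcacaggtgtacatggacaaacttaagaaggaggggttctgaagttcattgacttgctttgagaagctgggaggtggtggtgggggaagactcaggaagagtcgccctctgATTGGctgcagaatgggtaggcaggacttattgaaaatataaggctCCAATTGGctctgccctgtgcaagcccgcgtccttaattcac
Ech1: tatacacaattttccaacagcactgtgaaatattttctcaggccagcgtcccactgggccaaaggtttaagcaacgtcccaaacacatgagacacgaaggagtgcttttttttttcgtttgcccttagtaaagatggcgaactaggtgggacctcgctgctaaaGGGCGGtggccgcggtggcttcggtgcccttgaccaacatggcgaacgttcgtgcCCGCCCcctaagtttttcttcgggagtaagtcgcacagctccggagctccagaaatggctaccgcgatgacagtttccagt
Ehhadh: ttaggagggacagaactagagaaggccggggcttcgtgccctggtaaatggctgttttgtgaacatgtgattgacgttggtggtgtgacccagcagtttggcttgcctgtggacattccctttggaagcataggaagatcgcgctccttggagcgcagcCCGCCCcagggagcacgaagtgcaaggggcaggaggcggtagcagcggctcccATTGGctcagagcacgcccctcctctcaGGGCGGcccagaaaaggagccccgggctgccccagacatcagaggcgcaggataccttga
Uox: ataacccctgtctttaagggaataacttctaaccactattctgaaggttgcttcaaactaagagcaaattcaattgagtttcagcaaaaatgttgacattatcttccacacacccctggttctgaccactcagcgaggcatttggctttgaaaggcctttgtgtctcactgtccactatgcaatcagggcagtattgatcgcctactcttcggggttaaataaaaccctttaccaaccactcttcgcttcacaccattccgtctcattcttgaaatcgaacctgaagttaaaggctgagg
Ehhadh held 3 marked elements in a window of 60.7% GC, Ech1 held 2 at 52.3%, Acaa1b held 4 at 43.7%, and Uox held none at 43.0%. No element was common to all 4 windows.

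A promoter window was available for 41 of the 49 genes. The element that PPAR-alpha binds as a partner of RXR is a direct repeat spaced by 1 base, searched here as AGGTCANAGGTCA on both strands. None of the 41 genes held it with at most 1 mismatch, compared with 0.644% of all 27025 genes with a window. With up to 2 mismatches 2 of the 41 genes held it, or 4.88%, against 4.40% of all genes. These were Cat, with AGGTCAgAGaaCA beginning 204 bases before the start (window chr2:103485104-103485403, minus strand), and Acox2, with AGGaCAgAGGTgA beginning 9 bases after it (window chr14:8258790-8259089, minus strand), where capitals are the matching bases. Neither gene rose, and none of the 13 genes that rose and had a window held the element at that limit. Within these short windows a missing match says nothing about sites elsewhere. The GC box was present in 68.3% of the 41 genes and in 38.2% of all genes with a window, whether or not tested in liver. It was in 8 of the 13 genes that rose and in 19 of the 26 that did not pass. TATAAA was present in 7.32% against 15.7%, the CCAAT box in 43.9% against 41.1%, and the single hexamer AGGTCA in 12.2% against 18.1%. The median GC content was 57.3% for the peroxisomal windows and 52.7% for all windows.

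Within beta-oxidation the first acts are transport and activation at the membrane. Abcd3 (PMP70) and Abcd2 are ABC transporters that bring acyl-CoA into the organelle. Abcd3 ranged from 252 to 306 CPM in the CDAA-HFD mice with a median of 284, and from 300 to 391 CPM in the BLT1i mice with a median of 348. It rose 1.23-fold (log2 fold change 0.29 ± 0.05, SE, edgeR adjusted p = 0.000181), with 9 of 10 BLT1i mice above all CDAA-HFD mice. Abcd2, which prefers very long polyunsaturated acyl chains, ranged from 22.8 to 34 CPM (median 29.2) and from 29.0 to 46.7 CPM (median 37.4). It rose 1.35-fold (0.44 ± 0.08, edgeR adjusted p = 0.00195). Per length Abcd2 was the scarcer transporter, with a rounded FPKM (fragments scaled to gene length and depth) of 4.3 ± 0.48 against 73.1 ± 3.21 for Abcd3 in the CDAA-HFD mice (SD, n = 10).

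The acyl-CoA oxidases of branched chains and bile acid intermediates showed little difference. Acox2, the oxidase of bile acid intermediates, ranged from 148 to 199 CPM (median 182) in CDAA-HFD mice and from 147 to 194 CPM (median 180) in the BLT1i mice. Its log2 fold change was -0.02, with a 95% confidence interval from -0.13 to 0.09. Acox3, an oxidase of branched chains, had a value of 0.02 with an interval from -0.05 to 0.08. For both genes the groups overlapped almost fully.

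The enzymes that follow the oxidase step carried the highest folds. Ehhadh (ENSMUSG00000022853), the L-bifunctional protein that hydrates and dehydrogenates enoyl-CoA, ranged from 176 to 263 CPM with a median of 195 in CDAA-HFD mice and from 406 to 608 CPM with a median of 476 in the BLT1i mice. The lowest treated mouse was thus well above the highest untreated one, mouse 32. Ehhadh rose 2.33-fold (log2 fold change 1.22 ± 0.08, SE, n = 10 per group, edgeR adjusted p = 1.09e-09). Hsd17b4, the D-bifunctional protein, which does the same steps for branched chains and bile acid intermediates, ranged from 219 to 265 CPM (median 243) and from 264 to 317 CPM (median 292). The highest CDAA-HFD mouse and the lowest BLT1i mouse were about level, and 9 of 10 BLT1i mice lay above all CDAA-HFD mice. Hsd17b4 rose 1.19-fold (0.25 ± 0.04, edgeR adjusted p = 0.000248).

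The balance between the bifunctional proteins differed between the groups. The log2 ratio of Ehhadh to Hsd17b4 in CPM was -0.26 ± 0.16 in the CDAA-HFD mice and 0.71 ± 0.14 in the BLT1i mice (SD, n = 10). The difference of 0.97 ± 0.07 (SE) had a p of 2e-05 in a two-sided permutation test over mice, the smallest that 100000 resamples can give, and a Benjamini-Hochberg p of 4e-05 over 4 such pairs. All 10 BLT1i mice exceeded all CDAA-HFD mice in this ratio. The 4 pairs were chosen after their values were seen.

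The last step, thiolytic cleavage, is served by Acaa1a, Acaa1b and Scp2. Acaa1b (ENSMUSG00000010651), the thiolase B of rodents, ranged from 273 to 496 CPM (median 319) in CDAA-HFD mice and from 577 to 805 CPM (median 662) in the BLT1i mice. It rose 1.91-fold (0.93 ± 0.09, edgeR adjusted p = 1.07e-06) without overlap. Acaa1a, the thiolase A, ranged from 97.6 to 162 CPM (median 141) and from 142 to 191 CPM (median 166), with a log2 fold change of 0.26 ± 0.08 that did not pass (edgeR adjusted p = 0.0569). The groups overlapped for Acaa1a, with 5 of 10 BLT1i mice above all CDAA-HFD mice, and its call depended on the test. DESeq2, limma-voom and the leaving out of any of mice 32, 37, 39, 72 or 74 each called it higher. The log2 ratio of Acaa1b to Acaa1a went from 1.34 ± 0.23 to 2.02 ± 0.10 (SD), a difference of 0.68 ± 0.08 (SE, permutation p = 2e-05, Benjamini-Hochberg p = 4e-05). The thiolase transcripts share sequence: 21.6% of the windows of 100 bases along Acaa1a and 22.6% of those along Acaa1b occur in the other, so reads there can be assigned to either.

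Scp2, whose longer product is the thiolase of branched chains, was the highest of the 49 genes per length, with a rounded FPKM of 663 ± 44.6 in the CDAA-HFD mice and 705 ± 41.6 in the BLT1i mice (SD, n = 10). In CPM it ranged from 1553 to 1848 (median 1677) in CDAA-HFD mice and from 1604 to 2050 (median 1798) in the BLT1i mice. The log2 fold change of 0.09 ± 0.05 did not pass (edgeR adjusted p = 0.261). Of its windows 32.2% recur in the transcript of the pseudogene Scp2-ps2.

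Unsaturated chains need auxiliary isomerases and a reductase. Ech1 (ENSMUSG00000053898), a dienoyl-CoA isomerase found in peroxisomes and mitochondria, ranged from 119 to 150 CPM (median 141) and from 174 to 222 CPM (median 191). It rose 1.38-fold (0.47 ± 0.05, edgeR adjusted p = 6.69e-07), and the groups did not overlap. Decr2, the peroxisomal dienoyl-CoA reductase, ranged from 119 to 163 CPM (median 135) and from 144 to 216 CPM (median 183), and rose 1.36-fold (0.44 ± 0.07, edgeR adjusted p = 0.000535). For Decr2 8 of 10 BLT1i mice lay above all CDAA-HFD mice. Eci2, an enoyl-CoA isomerase, ranged from 85.9 to 134 CPM (median 117) and from 120 to 199 CPM (median 144) and rose 1.35-fold (edgeR adjusted p = 0.00747). Pecr, a trans-enoyl-CoA reductase that acts outside this route, had a log2 fold change of -0.05 with an interval from -0.18 to 0.09.

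Shortened chains leave as carnitine esters. Crot, carnitine octanoyltransferase, ranged from 531 to 718 CPM (median 613) and from 667 to 973 CPM (median 752) and rose 1.25-fold (edgeR adjusted p = 0.00335). Crat, carnitine acetyltransferase, ranged from 44.7 to 71.4 CPM (median 52.1) and from 62.1 to 86.2 CPM (median 64.8) and rose 1.28-fold (edgeR adjusted p = 0.00306). One CDAA-HFD mouse, mouse 32, had the top Crat value of its group at 71.4 CPM, above 9 of the 10 BLT1i mice, while all 10 BLT1i mice were above the CDAA-HFD median.

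**Figure D2:**
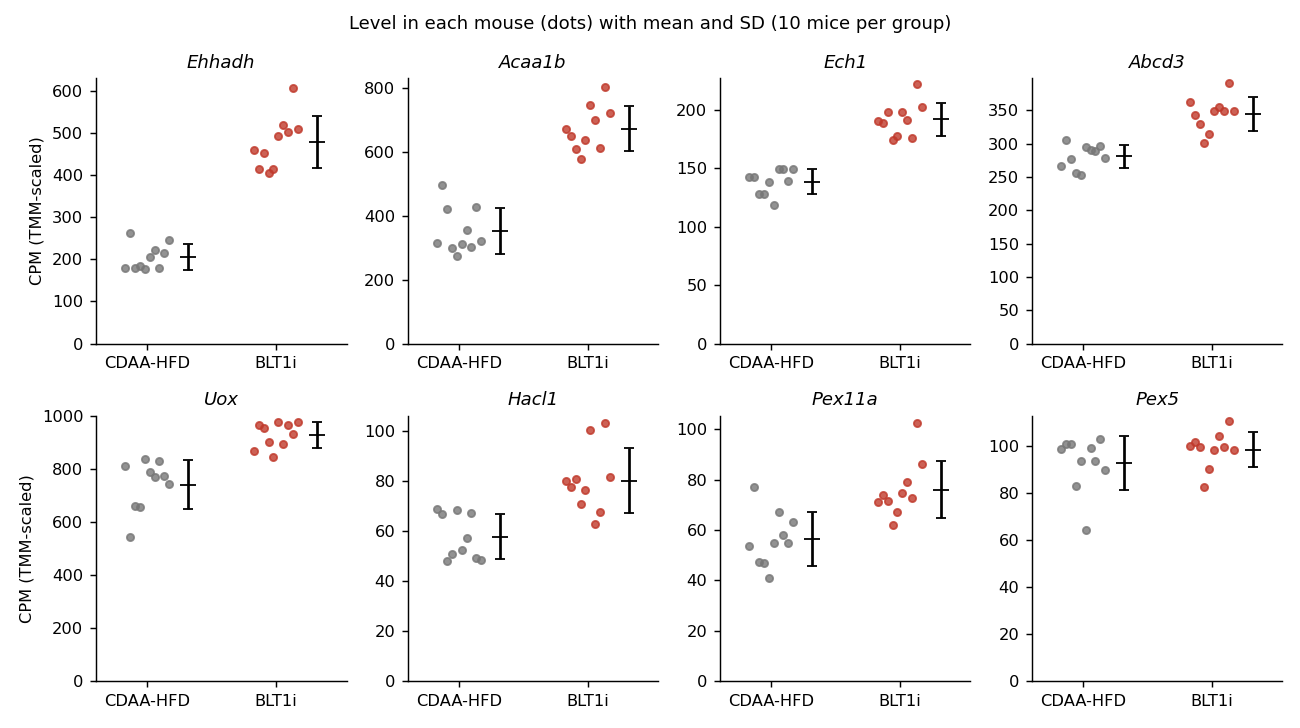
Level of 8 peroxisomal genes in each mouse (y axis, CPM scaled by TMM, from 0), one dot per mouse with mean and SD beside it, 10 mice per group. The groups do not overlap for Ehhadh, Acaa1b, Ech1 and Uox, and they overlap for Abcd3, Hacl1, Pex11a and Pex5.

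Among oxidases and glyoxylate enzymes Uox stood alone in passing. Uox (ENSMUSG00000028186), urate oxidase, the crystalline core enzyme of rodent peroxisomes that degrades uric acid, ranged from 542 to 837 CPM (median 771) in CDAA-HFD mice and from 845 to 980 CPM (median 944) in the BLT1i mice. It rose 1.25-fold (0.32 ± 0.06, edgeR adjusted p = 0.00216). The separation was narrow, and mouse 32, the CDAA-HFD mouse highest in Ehhadh, was the lowest in Uox. In the rounded FPKM the Uox groups overlapped, with 265 to 471 in the CDAA-HFD mice and 388 to 496 in the BLT1i mice.

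Cat, catalase, ranged from 1147 to 1690 CPM (median 1354) and from 1345 to 1580 CPM (median 1428). Its log2 fold change was 0.08 with a 95% interval from -0.04 to 0.20 (edgeR adjusted p = 0.492). The range of the BLT1i mice lay within that of the CDAA-HFD mice. Agxt, alanine-glyoxylate aminotransferase, ranged from 71.8 to 111 CPM (median 86.6) and from 78.9 to 116 CPM (median 98.0) (0.13, edgeR adjusted p = 0.36). Hao1, glycolate oxidase, was at 0.03, and Pipox, which oxidises pipecolic acid and sarcosine, at -0.09, and neither passed. Hao2, a hydroxyacid oxidase, had medians of 0.275 and 0.385 CPM, and Dao, D-amino acid oxidase, at most 0.0889 CPM in any mouse, so these genes were not tested.

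Alpha-oxidation removes a single carbon from methyl-branched chains such as phytanic acid. Hacl1, its hydroxyacyl-CoA lyase, ranged from 48.0 to 68.6 CPM (median 54.9) and from 62.7 to 103 CPM (median 78.9) and rose 1.39-fold (0.48 ± 0.10, edgeR adjusted p = 0.00422). Phyh, the hydroxylase of the first step, ranged from 717 to 973 CPM (median 776) and from 851 to 1016 CPM (median 933) and rose 1.16-fold (0.21 ± 0.05, edgeR adjusted p = 0.0128). For Phyh 2 BLT1i mice exceeded all CDAA-HFD mice, and all 10 exceeded the CDAA-HFD median. Amacr, the racemase of branched acyl-CoA, was at 0.14 ± 0.05 (edgeR adjusted p = 0.111). The Hacl1 value carries an uncertainty of assignment, since 52.7% of its windows also occur in transcripts of a predicted locus, Gm49387.

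The ether lipid role had no gene that passed, and its median log2 fold change was -0.04. Gnpat and Agps, which start and form the ether bond inside the organelle, were at 0.04 (interval -0.05 to 0.13) and -0.04 (interval -0.10 to 0.03). Far1, the reductase that supplies the fatty alcohol, ranged from 33.2 to 39.1 CPM (median 35.2) and from 30.0 to 36.4 CPM (median 32.9), with a log2 fold change of -0.11 ± 0.04 that did not pass (edgeR adjusted p = 0.112). The interval for Far1 ran from -0.19 to -0.03.

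Of the coenzyme A genes Mlycd rose. Mlycd, malonyl-CoA decarboxylase, which is found in peroxisomes, mitochondria and cytosol, ranged from 47.3 to 64.1 CPM (median 60.1) and from 59.6 to 79.3 CPM (median 69.1), and rose 1.21-fold (0.27 ± 0.06, edgeR adjusted p = 0.00688). Nudt7, a coenzyme A diphosphatase, varied most among untreated mice of the 47 tested genes, with a coefficient of variation of 27.3%, and ranged from 75.7 to 162 CPM (median 102) against 105 to 163 CPM (median 121). Its log2 fold change of 0.21 had an interval from -0.06 to 0.48. Nudt12 at 0.07 and Nudt19 at 0.04, also Nudix hydrolases, did not pass. The protease Lonp2 and the membrane proteins Pxmp2, Pxmp4 and Slc25a17, the last a carrier of nucleotide cofactors, were between 0.01 and 0.08 and none passed.

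Of the 8 genes for import receptors, docking, ubiquitin ligase and receptor export (Pex5, Pex7, Pex13, Pex14, Pex2, Pex10, Pex6 and Pex26), 1 rose, or 12.5%, against 3.65% of all tested genes, and their median log2 fold change was 0.05 against -0.01. Pex14, the docking protein, ranged from 57.2 to 64.9 CPM (median 61.0) and from 60.8 to 74.6 CPM (median 67.4) and rose 1.11-fold (0.15 ± 0.04, edgeR adjusted p = 0.0173). It did not pass on the log2 scale of the rounded FPKM. Pex5, the receptor for the C-terminal targeting signal, ranged from 64.4 to 103 CPM (median 96.3) and from 82.6 to 111 CPM (median 99.6) with a log2 fold change of 0.09 (interval -0.05 to 0.22, edgeR adjusted p = 0.52). Pex7, the receptor for the N-terminal signal that thiolase and Phyh carry, was at 0.09 ± 0.04 (edgeR adjusted p = 0.162). Pex10, a ring-finger ligase, had the lowest log2 fold change of the Pex genes at -0.12 ± 0.06 (edgeR adjusted p = 0.264). None of the remaining genes of this group passed: Pex2, another ring-finger ligase, was at -0.07, Pex13, a docking protein, at 0.02, Pex6, an ATPase that pulls the receptor back out, at 0.03, and Pex26, its membrane anchor, at 0.08. The sign of Pex13 and of Pex6 changed under some alternatives.

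Pex3, Pex16 and Pex19 place proteins in the peroxisomal membrane. Pex19, the chaperone of this route, ranged from 85.5 to 105 CPM (median 94.0) and from 94.0 to 118 CPM (median 102) and rose 1.12-fold (0.17 ± 0.04, edgeR adjusted p = 0.0254). The Pex19 call was lost without CDAA-HFD mouse 34 or without BLT1i mouse 80, where the adjusted p reached 0.0516. Pex3 was at 0.08 and Pex16 at 0.14, and neither passed.

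The Pex11 proteins shape and divide the organelle. Pex11a ranged from 41.0 to 77.1 CPM (median 54.7) and from 62.1 to 102 CPM (median 73.2) and rose 1.35-fold (0.43 ± 0.10, edgeR adjusted p = 0.0138). The groups overlapped, since 3 of 10 BLT1i mice lay above all CDAA-HFD mice, although all 10 lay above the CDAA-HFD median. Pex11g ranged from 31.3 to 39.8 CPM (median 34.8) and from 30.2 to 41.0 CPM (median 33.1), with a log2 fold change of -0.05 (interval -0.15 to 0.06). The log2 ratio of Pex11a to Pex11g rose by 0.49 ± 0.13 (SE), from 0.66 ± 0.33 to 1.15 ± 0.22 (SD, permutation p = 0.00058, Benjamini-Hochberg p = 0.000773). The last of the 4 pairs, Abcd2 to Abcd3, differed by 0.14 ± 0.08 and did not pass (permutation p = 0.0884).

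Compared per length, the most abundant of the 49 genes were Scp2, Phyh, Cat and Uox, with mean rounded FPKM of 663, 492, 460 and 358 in the CDAA-HFD mice. Ehhadh went from 59.8 ± 8.79 to 139 ± 17 and Acaa1b from 185 ± 34.6 to 352 ± 33.3 (SD, n = 10). Abcd2 and Pex10, at 4.3 and 3.2, were the lowest above 0, and Hao2 and Dao were listed at 0. The Pex genes lay between 3.2 and 40.2, so the organelle's assembly genes were expressed below most of its beta-oxidation genes.

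**Figure D3:**
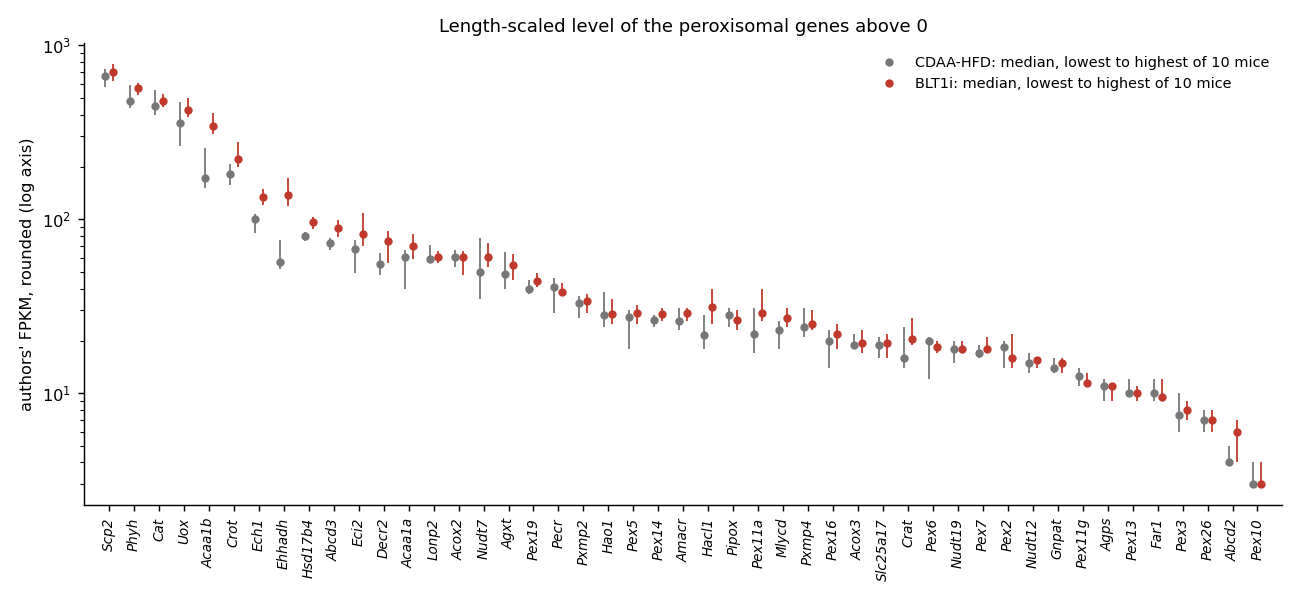
Rounded FPKM of the authors (y axis, log scale) for the 47 peroxisomal genes above 0, in order of mean level; points are medians and lines run from the lowest to the highest of 10 mice per group. The groups do not overlap for Ehhadh, Acaa1b, Ech1, Hsd17b4 and Abcd3, and the lines of the other genes overlap or touch.

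Spread between mice was moderate. The coefficient of variation of CPM had a median of 9.97% in the CDAA-HFD mice and 8.19% in the BLT1i mice over the 47 tested genes, and it was lower with BLT1i in 30 of them, or 63.8%. Over all tested genes these medians were 9.68% and 8.81%, and 57.9% of genes were less variable with BLT1i. The difference in spread was not tested.

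Ehhadh was used to ask whether peroxisomal genes varied together among mice of a group, with Acaa1b, Hsd17b4, Cat and Pex11a as partners, 8 relations in all, each over 10 mice in log2 CPM. The highest coefficients were with Pex11a. In the CDAA-HFD mice Pearson's r was 0.84 (permutation p = 0.00206, Benjamini-Hochberg p = 0.00824) and Spearman's rho 0.82 (permutation p = 0.00591, Benjamini-Hochberg p = 0.0236). In the BLT1i mice r was 0.89 (permutation p = 0.00045, Benjamini-Hochberg p = 0.0036) and rho 0.83 (permutation p = 0.00488, Benjamini-Hochberg p = 0.0236). Without the 2 mice farthest from the Ehhadh median r was 0.69 and 0.68 over 8 mice, and the calls were lost (permutation p = 0.0565 and 0.0523). The 2 farthest mice were picked again on each scale, and in the BLT1i mice they were not the same animals on every scale. With the 2 so picked left out, r in the BLT1i mice was 0.85 with library totals alone (permutation p = 0.00608, Benjamini-Hochberg p = 0.0486). It was 0.85 in log2 of the rounded FPKM plus 1 (permutation p = 0.00761, Benjamini-Hochberg p = 0.0609). A change of scale and a change of the mice left out cannot be told apart there. Over all 10 mice Hsd17b4 gave r of 0.73 in the CDAA-HFD and 0.67 in the BLT1i mice (permutation test, Benjamini-Hochberg p = 0.0289 and 0.0451). Its rho in the BLT1i mice was 0.39 (permutation test, Benjamini-Hochberg p = 0.263). In the same order of groups, Cat gave r of 0.52 and 0.73 (permutation test, Benjamini-Hochberg p = 0.126 and 0.0289). Acaa1b gave 0.57 and 0.79 (permutation test, Benjamini-Hochberg p = 0.0984 and 0.0195). In TMM-scaled CPM none of the 8 relations had a Benjamini-Hochberg p of at most 0.05 without the 2 mice farthest from the Ehhadh median. The rho of Ehhadh and Pex11a over all 10 mice depended on the scale. With library totals alone it was 0.65 in the CDAA-HFD and 0.78 in the BLT1i mice (permutation test, Benjamini-Hochberg p = 0.0976 and 0.0819). In log2 of the rounded FPKM plus 1 it was 0.69 and 0.83 (permutation test, Benjamini-Hochberg p = 0.0621 and 0.0346). Mice 32 and 79 were the highest of their groups in both Ehhadh and Pex11a.

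**Figure D4:**
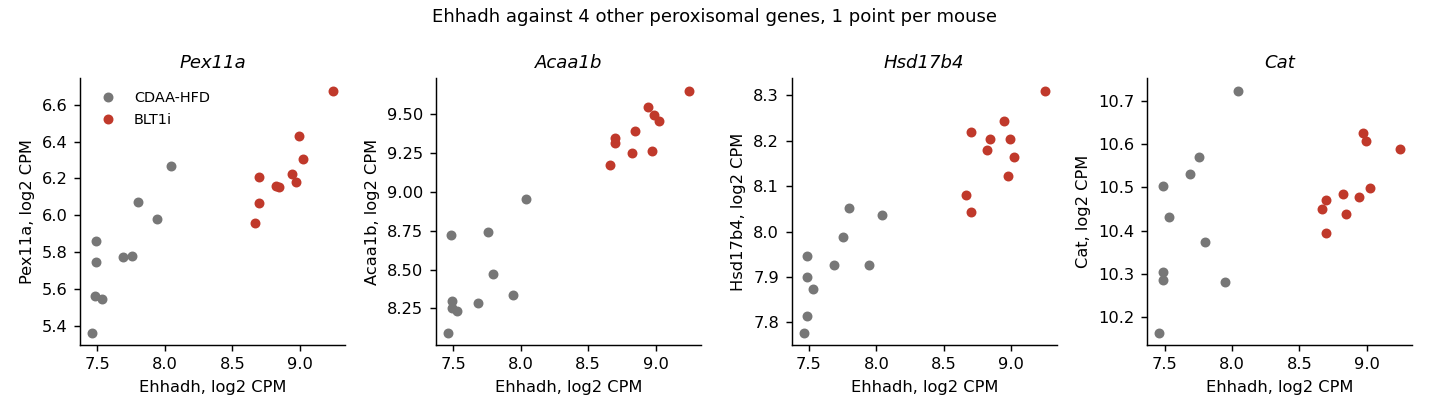
Level of Pex11a, Acaa1b, Hsd17b4 and Cat (y axes) against Ehhadh (x axis), all in log2 CPM, one point per mouse, grey for CDAA-HFD and red for BLT1i. For Pex11a the points rise within each group (r = 0.84 and 0.89), with mice 32 and 79 at the upper right of their groups.

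Other genes of the organelle and of neighbouring pathways were described by lists drawn up by function, also with earlier results of these data known. Of 25 further peroxisomal genes, with a median log2 fold change of 0.09, the same as in the 47 genes, 6 rose and none fell. The 6 make up 24.0% of the 25, against 3.65% of all tested genes called higher. They included Dhrs4, a carbonyl reductase (1.21-fold, edgeR adjusted p = 0.000153), Slc27a2, the very long chain acyl-CoA synthetase (1.29-fold, edgeR adjusted p = 0.00161), and Acad11, an acyl-CoA dehydrogenase (1.21-fold, edgeR adjusted p = 0.00306). Of 7 tested genes for fission and turnover of peroxisomes none passed, against 5.63% of all tested genes called in either direction. At that share, none of 7 does not set them apart from other genes. Their median was 0.01, and Dnm1l, the dynamin that severs the organelle, was at -0.08.

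Fatty acid oxidation outside the peroxisome moved in the same direction. Of 17 genes of mitochondrial beta-oxidation 14 rose, or 82.4%, against 3.65% of all tested genes called higher. The median of the 17 was 0.28, near the 0.32 of the peroxisomal role. Hadhb, a subunit of the trifunctional protein, rose 1.36-fold (edgeR adjusted p = 9.75e-06), Acadl 1.28-fold (4.2e-05) and Etfdh, which hands electrons to the respiratory chain, 1.29-fold (6.97e-05). Of 6 genes of Cyp4a, the omega-hydroxylases that make dicarboxylic acids for peroxisomes, 5 rose, or 83.3%, against the same 3.65%. The median of the 6 was 1.49, and Cyp4a31, Cyp4a10 and Cyp4a14 rose 3.12-fold, 3.23-fold and 5.08-fold. Of 10 genes for PPAR receptors and their partners none passed, against 5.63% of all tested genes called in either direction. At that share, none of 10 does not set them apart from other genes. Pparg was at 0.20, Ppara at 0.24 and Ppargc1a at 0.31 (edgeR adjusted p = 0.0573, 0.0869 and 0.18).

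**Figure D5:**
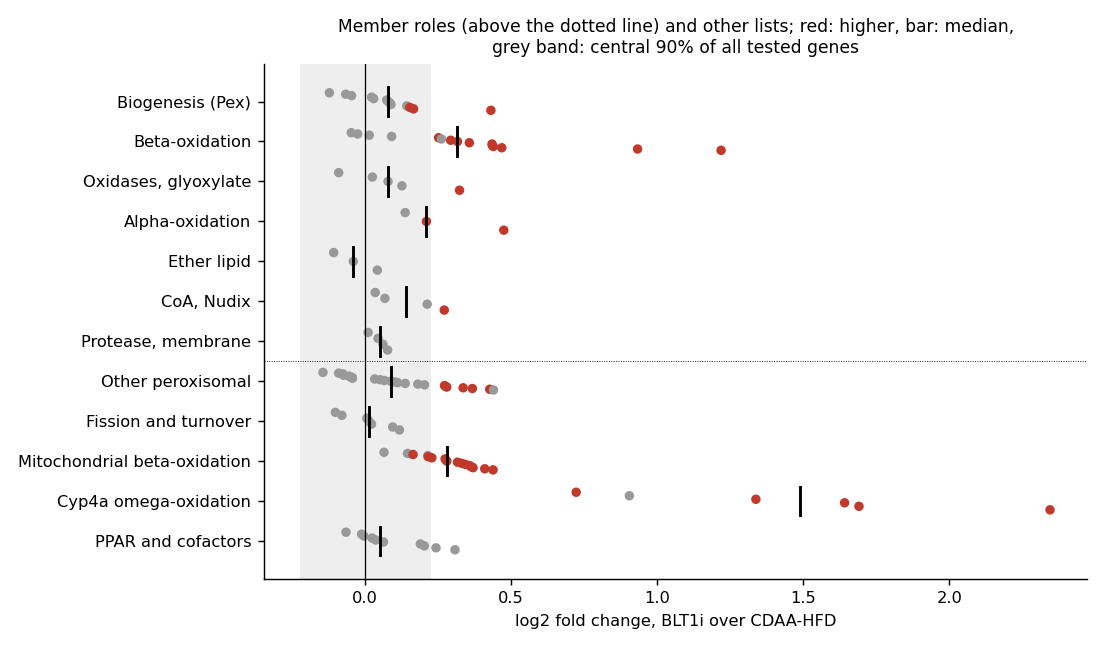
Log2 fold change (x axis) of each tested gene by role of the peroxisomal genes and, under the dotted line, in 5 other lists; red marks genes called higher, the bar is the median and the grey band spans the central 90% of all tested genes, from -0.22 to 0.22. The Cyp4a median of 1.49 lies farthest right, and the medians of beta-oxidation in peroxisomes and mitochondria lie at 0.32 and 0.28.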

How the data were processed

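Liver RNA of 20 mice was sequenced as stranded, ribosome-depleted libraries read in pairs, per the labels' protocols, whereas the molecule field of the labels says polyA RNA. The labels list 40 samples, 2 lanes per mouse, and the tables hold 1 column per mouse, which was the replicate. Columns name the group and mouse, and none was left unmapped. The count table that the authors deposited is raw, with 1 row per protein-coding gene. They also deposited FPKM rounded to whole numbers, treated here as a score and used for levels between genes and for alternatives. The build was GRCm39, per the submitters' processing notes, and aligner and counter were not given in the sources used here. Of 21500 identifiers 21457 matched a gene name, and the 43 others held 0.0078% of counts. Members and lists were chosen with earlier results of these data known.

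Genes were filtered with filterByExpr, TMM-scaled and tested in edgeR 4.0.16 with R 4.3.3 (robust quasi-likelihood F-test, two-sided, no covariates, Benjamini-Hochberg). Named in full were, by a fixed rule, up to 4 called genes per role with the lowest p and up to 2 others with the highest level; further members were named after their values were seen. Alternatives were other scalings, filters, thresholds, DESeq2 1.42.0, limma-voom and limma-trend (limma 3.58.1), covariates, sva 3.50.0 and single mice left out. Promoter windows are RefSeq's on GRCm38.p6; shared sequence was counted as identical 100-base windows between transcripts of a GRCm38 annotation. Protein sequences were not used here. By the labels each mouse is a separate animal; cages and batches are not stated. Correlations, and the ratios within a mouse, used log2 CPM with a prior count of 2 and permutation tests over mice.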

Additional observations from a re-analysis of the deposited data

Results flagged for a closer look

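The 49 genes in each of the 2 groups gave 98 sets of 10 mice. Of these sets 12 held a mouse whose gap to its nearest neighbour was larger than Dixon's 95% limit allows. For normally distributed values chance gives about 1 set in 20. The sets share the same mice and include Hao2 and Dao at very low counts, so the 12 cannot be read as an excess. BLT1i mouse 79 was the high extreme in 4 of the 12, with Scp2 at 2050, Crot at 973, Crat at 86.2 and Pxmp4 at 82.1 CPM. CDAA-HFD mouse 36 held 3, low for Pex5 at 64.4 and Pex16 at 21.9 CPM and high for Pex3 at 26.9 CPM. The others were single cases: Crat at 71.4 CPM in CDAA-HFD mouse 32, Hao1 at 93.2 CPM in CDAA-HFD mouse 39, Hao2 at 0.789 CPM in CDAA-HFD mouse 35, Pex2 at 45.5 CPM in BLT1i mouse 72 and Nudt7 at 163 CPM in BLT1i mouse 71. With mice 36 and 79 both left out, an alternative chosen after seeing the data, 16 of the 17 calls remained, Pex19 being lost (edgeR adjusted p = 0.0663).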

How the results depend on the processing

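Between 16 and 18 peroxisomal genes were called higher under every alternative scaling, filter, test, unit and left-out mouse, and none was called lower. The exceptions were an adjusted p of at most 0.01, with 13 higher, and the immediate early covariate, with 4 higher; with that covariate 87 genes in all passed, against 788 without it. Summing Acaa1a and Acaa1b left the call. The split of all called genes was 511 higher and 277 lower, and became 443 and 401 under upper-quartile scaling and 391 and 540 with library totals alone, while the median of all genes moved by 0.03 at most. Signs reversed in small, uncalled log2 fold changes. Pex13 was -0.0066 with library totals and -0.0253, -0.0275 and -0.0253 in the rounded FPKM plus 1, plus 0.1 and plus 1 with a filter. Acox3 was -0.0136, Hao1 -0.0022 and Lonp2 -0.0172 with library totals. Lonp2 was -0.0018 under upper-quartile scaling. With the covariate Acox2 was 0.0332 and Pecr 0.0763. With 1 surrogate variable Hao1 was -0.0053 and Lonp2 -0.0072. Without mice 36 and 79 Pex6 was -0.0319, Hao1 -0.0125 and Lonp2 -0.0004. With single mice left out Pex6 ran from -0.0217 to 0.0545, Acox2 from -0.0498 to 0.0018, Hao1 from -0.0087 to 0.09 and Lonp2 from -0.0038 to 0.0408. The causes were not tested. No paired analysis was possible because the mice of the groups share no number. Hao2 and Dao did not pass the filter on low counts and were not tested.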
